A study of Mus musculus with 8 samples.

Results

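Trem2 and 9 genes that mark lipid-associated macrophages (Tyrobp, Gpnmb, Spp1, Cd9, Cd63, Fabp5, Lgals3, Lpl and Itgax) were followed in whole liver of mice with and without hepatocyte Smo. The 10 genes were chosen because Trem2 stood out among all genes in the same comparison that is described here, so their differences between the groups are given as a description, without a test. All 10 symbols were found among the 25239 symbols counted in each liver, and all 10 passed the filter on low counts that left 12977 genes. The mice were adult male Smo tm2Amc/J (Smo flox/flox) animals on the C57Bl6/J background, and both groups ate CDA-HFD, a high-fat diet that lacks choline and supplies protein as L-amino acids, for 6 weeks. Smo-Luc mice (control, n = 4) were given AAV8-TBG-Luciferase by tail vein 1 week before sacrifice, and Smo-Cre mice (Smo KO, n = 4) were given AAV8-TBG-Cre Recombinase at the same time. Both groups therefore carried the floxed alleles, the vector and the diet, and livers without a vector or on a chow diet were not analysed here. The TBG promoter is active in hepatocytes, so the macrophages that express most of these genes were not the cells aimed at, and the deletion was 1 week old when RNA was taken. Reads on genes ranged from 9177277 to 9999732 in Smo-Luc livers (median 9643036) and from 8203299 to 9543675 in Smo-Cre livers (median 9406611), a difference within the spread of the livers (exact permutation test, two-sided p = 0.257). Liver Smo-Cre 3 had the fewest reads.

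Trem2 is a surface receptor of macrophages that binds lipids and lipoproteins such as apolipoprotein E, and it has no signaling tail of its own. It signals through the adaptor Tyrobp (DAP12), which recruits the kinase Syk, and its extracellular part is shed by the metalloproteases Adam10 and Adam17. In fatty liver and in adipose tissue, macrophages that take up lipid express Trem2 together with the other 9 genes, whose products handle lipid (Lpl, Fabp5), sit in lysosomes or at the surface (Cd63, Cd9, Gpnmb) or are secreted or adhesive (Spp1, Lgals3, Itgax).

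The labels were first checked on Smo itself. Smo, the signal transducer of the Hedgehog pathway, was at 8.16, 8.48, 8.73 and 8.20 CPM (read counts scaled to library size, with the trimmed mean of M values) in the Smo-Luc livers and at 5.66, 3.92, 4.26 and 4.37 CPM in the Smo-Cre livers. The groups did not overlap, and the Smo-Cre mean was 54.3% of the Smo-Luc mean (8.39 ± 0.270 and 4.55 ± 0.764 CPM; SD, n = 4 each). A two-sided exact permutation test of the CPM gave p = 0.0286, the smallest that 4 against 4 allows. These values rest on 72 to 88 reads per Smo-Luc liver and 35 to 55 per Smo-Cre liver. The log2 fold change was -0.88 (SE 0.16), and edgeR's quasi-likelihood test, fitted to all genes, gave Smo an adjusted p of 0.0957.

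Trem2 (ENSMUSG00000023992.14) lies on the forward strand of chr17:48346401-48354147 of GRCm38. Its promoter, taken from RefSeq (GRCm38.p6, chr17:48346151-48346450, forward strand, 250 bases before to 50 after the annotated start), is shown because Trem2 is the gene that the choice turned on, with matches to a PU.1 core and a nuclear receptor half-site in capitals, both of which are on the reverse strand here.
Trem2 promoter: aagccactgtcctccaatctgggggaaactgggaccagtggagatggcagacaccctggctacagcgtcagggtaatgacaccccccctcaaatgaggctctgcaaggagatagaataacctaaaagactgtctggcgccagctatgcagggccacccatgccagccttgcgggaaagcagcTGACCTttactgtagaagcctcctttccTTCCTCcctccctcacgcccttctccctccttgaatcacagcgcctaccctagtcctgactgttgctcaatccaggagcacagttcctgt
The PU.1 core searched was GAGGAA, the half-site AGGTCA and an E-box CACGTG, each on both strands, with no overlap between matches in this window. PU.1 and nuclear receptors such as LXR and PPAR gamma are known regulators of lipid-handling macrophages. The match to the PU.1 core began 40 bases and that to the half-site 68 bases before the start. The E-box was not found in this window. Of 32851 promoters of the same length, 28.3% held GAGGAA, 16.3% AGGTCA and 7.15% CACGTG, so such matches are common and are a description of the letters only. Promoters were matched for 7 of the 10 genes, of which Spp1 held 1 and Cd63 held 2 PU.1 cores, and Gpnmb, Cd9, Lgals3 and Itgax held none of the 3 motifs.

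Trem2 was at 29.8, 36.1, 32.8 and 35.7 CPM in Smo-Luc livers 1 to 4 and at 43.9, 54.6, 66.4 and 61.0 CPM in Smo-Cre livers 1 to 4. Each Smo-Cre liver was above each Smo-Luc liver, with Smo-Cre 1 the nearest to the controls. The means were 33.6 ± 2.94 and 56.5 ± 9.68 CPM (SD, n = 4 each), so the Smo-Cre mean was 168% of the Smo-Luc mean, and the log2 fold change was 0.75 (SE 0.13). The reads behind these levels were 263, 345, 330 and 361 in Smo-Luc and 426, 501, 545 and 573 in Smo-Cre livers. By edgeR's test none of the 12977 genes (0%) reached an adjusted p under 0.05, the lowest being 0.0785, while at an unadjusted p under 0.05 there were 869 genes higher in Smo-Cre (6.7%) and 928 lower (7.15%), and DESeq2 called 167 genes at an adjusted p under 0.05. Without Smo-Cre 1, edgeR's count at an adjusted p under 0.05 was 78. A log2 fold change at least as large as that of Trem2 was seen in 133 genes (1.02% of those tested), and among the 9335 genes with a mean of at least 10 CPM in 37. Groups that did not overlap were found in 393 genes that were higher in Smo-Cre (3.03%) and in 563 that were lower (4.34%). In whole liver, more macrophages that carry Trem2 and more Trem2 RNA in each of them cannot be told apart, and the same holds for the other genes below.

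**Figure D1:**
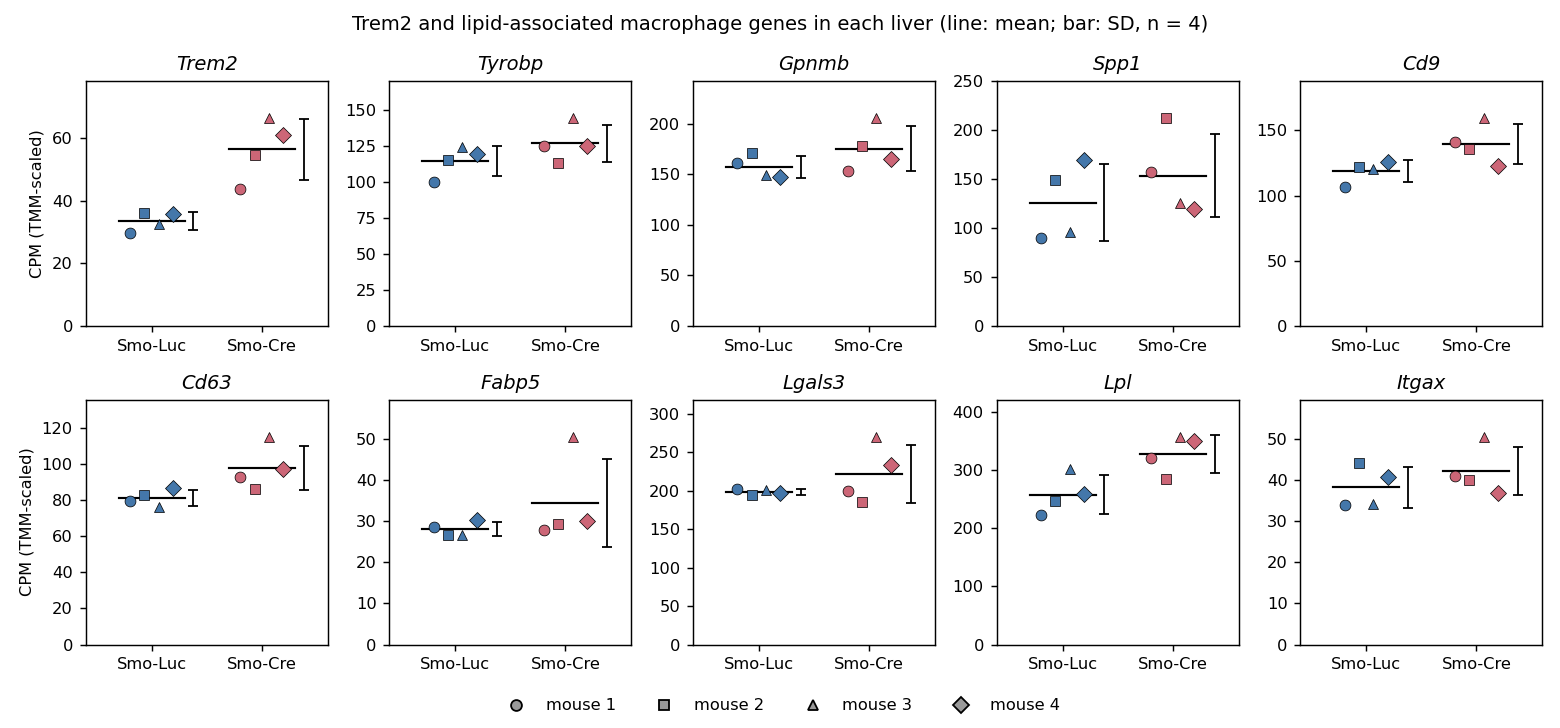
Level of Trem2 and the other 9 genes in each liver, in CPM on a linear axis from 0; symbols mark mice 1 to 4 of each group, horizontal lines the mean and bars the SD (n = 4). In the Trem2 panel the 4 Smo-Cre livers (43.9 to 66.4 CPM) lie above the 4 Smo-Luc livers (29.8 to 36.1 CPM), while in the other panels the groups overlap.

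Tyrobp, the adaptor through which Trem2 signals, was far less separated than the receptor. It was at 100, 116, 125 and 120 CPM in Smo-Luc and at 125, 114, 144 and 125 CPM in Smo-Cre livers, so that the groups overlapped. The log2 fold change was 0.14 (SE 0.10) between means of 115 ± 10.6 and 127 ± 12.8 CPM, and 0.08 without either Smo-Luc 1 or Smo-Cre 3. For every 100 Tyrobp reads there were 29.8, 31.2, 26.3 and 29.8 Trem2 reads in Smo-Luc and 35.1, 48.0, 46.0 and 48.8 in Smo-Cre livers. The groups did not overlap in this ratio, with means of 29.3 ± 2.10 and 44.5 ± 6.36, a log2 difference of 0.60. It holds the Trem2 values by which the genes were chosen and is a description only. Per length of the longest coding transcript, the ratio of Trem2 to Tyrobp was 0.161 ± 0.0115 in Smo-Luc and 0.244 ± 0.0349 in Smo-Cre livers, so the adaptor was the more abundant RNA in each group. Tyrobp also serves other receptors than Trem2.

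Lpl, the lipase that splits triglycerides of lipoproteins, had the second largest difference of the 10 genes. Lpl was at 223, 247, 303 and 258 CPM in Smo-Luc and at 321, 285, 358 and 351 CPM in Smo-Cre livers. Only Smo-Cre 2, at 285 CPM, fell within the Smo-Luc range, below Smo-Luc 3. The means were 258 ± 33.7 and 329 ± 33.0 CPM, 127% of the Smo-Luc mean, with a log2 fold change of 0.35 (SE 0.11). Fabp5, a carrier of fatty acids in the cytosol, was at 28.4, 26.7, 26.7 and 30.2 CPM in Smo-Luc and at 27.9, 29.3, 50.4 and 30.0 CPM in Smo-Cre livers. Its log2 fold change of 0.29 (SE 0.17) rested on Smo-Cre 3, without which it was 0.05. Fabp5 shared 21.1% of the 50-base stretches of its longest coding transcript with 5 other annotated genes, so its reads may have been split or lost in counting.

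Cd63, a tetraspanin of lysosomes and late endosomes, was at 79.2, 82.8, 76.2 and 86.3 CPM in Smo-Luc and at 92.5, 86.2, 115 and 97.2 CPM in Smo-Cre livers. The groups touched at a single pair, Smo-Cre 2 lying just below Smo-Luc 4. The log2 fold change was 0.27 (SE 0.10), between means of 81.2 ± 4.40 and 97.7 ± 12.3 CPM. Cd9, a tetraspanin of the cell surface, was at 107, 122, 121 and 125 CPM in Smo-Luc and at 141, 136, 159 and 122 CPM in Smo-Cre livers. There Smo-Cre 4 lay within the Smo-Luc range and the other Smo-Cre livers above it, and the log2 fold change was 0.23 (SE 0.10). Cd63 shared 36.5% and Cd9 15.5% of such 50-base stretches with other genes, among them the pseudogenes Cd63-ps and Cd9-ps, and an opposite-strand transcript, Gm26728, overlaps Cd9; whether strand was used in counting is not given in the sources used here. Gpnmb, a glycoprotein of the lysosomal and endosomal membranes, ranged from 147 to 171 CPM in Smo-Luc and from 153 to 205 CPM in Smo-Cre livers, with a log2 fold change of 0.16 (SE 0.10), which was 0.07 without Smo-Cre 3.

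Spp1, which encodes the secreted matrix protein osteopontin, varied widely between mice in both groups. It was at 89.8, 149, 95.6 and 169 CPM in Smo-Luc and at 157, 212, 126 and 120 CPM in Smo-Cre livers. Its coefficient of variation was 31.1% in Smo-Luc and 27.5% in Smo-Cre livers, the highest of the 10 genes in Smo-Luc and second to Fabp5 (31.1%) in Smo-Cre livers, and its log2 fold change of 0.29 (SE 0.22) was 0.09 without Smo-Cre 2 and 0.47 without Smo-Luc 4. Cholangiocytes also express Spp1, so in whole liver its level is not one of macrophages alone. Lgals3, a secreted and intracellular galectin, was tightly grouped in Smo-Luc livers, between 195 and 202 CPM, and spread from 186 to 270 CPM in Smo-Cre livers. Its log2 fold change was 0.16 (SE 0.11), and 0.05 without Smo-Cre 3. Itgax, the integrin chain CD11c of macrophages and dendritic cells, ranged from 34.0 to 44.1 CPM in Smo-Luc and from 36.9 to 50.6 CPM in Smo-Cre livers. Its log2 fold change of 0.14 (SE 0.12) was 0.04 without Smo-Cre 3, 0.09 without Smo-Luc 1 or Smo-Luc 3, and 0.22 without Smo-Luc 2. Of such 50-base stretches Spp1 shared 9.05% with Gm42793, whose exons overlap it on the same strand, Itgax 9.61% with its relative Itgad, and Lpl 4.11% with a total of 299 genes, so that reads there may be split or left uncounted.

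All 10 log2 fold changes were above 0, with a median of 0.25, where the median over all genes tested was -0.00084 and 6470 of the 12977 genes were above 0. Of the 10, 1 (Trem2) had groups that did not overlap and were higher in Smo-Cre, beside 3.03% of all genes. Because the list was chosen on this contrast, nothing is read from these counts.

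**Figure D2:**
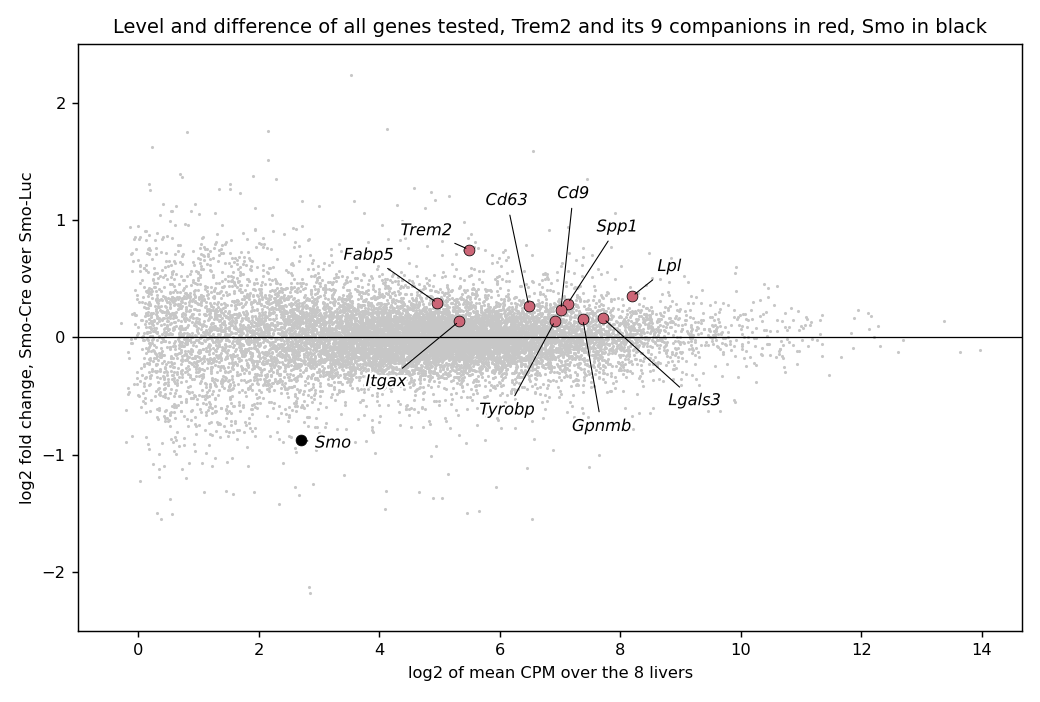
Log2 fold change of Smo-Cre over Smo-Luc (edgeR) against the log2 of the mean CPM over the 8 livers for the genes tested in grey, with the 10 genes in red and Smo in black; 4 genes lie outside the vertical axis. Trem2, at 0.75, lies at the upper edge of genes of its level and Smo, at -0.88, at the lower edge, while the other 9 genes lie between 0.14 and 0.35.

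The 4 Smo-Cre livers did not contribute alike. Smo-Cre 3 was the highest of its group in 9 of the 10 genes, all but Spp1, which was highest in Smo-Cre 2. On average over the 10 genes, Smo-Cre 3 lay 0.48 log2 units above the Smo-Luc mean, and Smo-Cre 1, 2 and 4 lay 0.17, 0.21 and 0.20 above it. Smo-Cre 3 was above the Smo-Luc mean in 10 of 10 genes and each of the other Smo-Cre livers in 8 of 10. It also had the fewest reads on genes and, among the Smo-Cre livers, the largest share of reads on no annotated feature, 9.68% against 8.97% to 9.26%, and the part of these in the result was not tested. Without Smo-Cre 3 the log2 fold change of Trem2 was 0.66. Among the controls, Smo-Luc 1 was the lowest in 6 of the 10 genes, including Trem2, Tyrobp and Lpl, and without it the log2 fold change of Trem2 was 0.69. The summed CPM of the 10 genes was 1054, 1189, 1165 and 1210 in Smo-Luc and 1303, 1320, 1545 and 1341 in Smo-Cre livers, and Lpl was the largest part of it.

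To set the genes beside one another, levels were divided by transcript length. In RPKM (CPM per kilobase of the longest coding transcript), Tyrobp stood highest, at 193 in Smo-Luc and 213 in Smo-Cre livers, followed by Lgals3 at 140 and 157. Cd9, Spp1, Cd63 and Lpl followed, between 62.7 and 96.7 in Smo-Luc and between 79.9 and 114 in Smo-Cre livers, and neighbours in this middle run overlapped in their range over mice in each group. Gpnmb was at 42.5 and 47.4, Trem2 at 30.9 ± 2.7 and 51.9 ± 8.90, Fabp5 at 28.4 and 34.9, and Itgax lowest at 9.46 and 10.4 RPKM. Trem2 thus stood eighth of the 10 in Smo-Luc livers, where its range overlapped that of Fabp5 but not that of Gpnmb, and seventh in Smo-Cre livers, where its range overlapped that of Gpnmb. The longest annotated transcripts of Trem2, Cd63 and Fabp5 are forms with a retained intron, of 4784, 2894 and 3238 bases against 1088, 1109 and 987 bases for the longest coding ones. On the longest transcripts of any kind Trem2 was at 7.02 RPKM in Smo-Luc livers, the lowest of the 10, and at 11.8 RPKM in Smo-Cre livers. On the median length over a gene's transcripts, Lgals3 (231) stood above Tyrobp (200) in Smo-Luc livers, Gpnmb was at 85.8, Itgax at 43.5, Trem2 at 31.3 and Fabp5 lowest at 13.3 RPKM. The order of the levels therefore depends on the transcript taken, while the ratio between groups of any single gene does not.

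**Figure D3:**
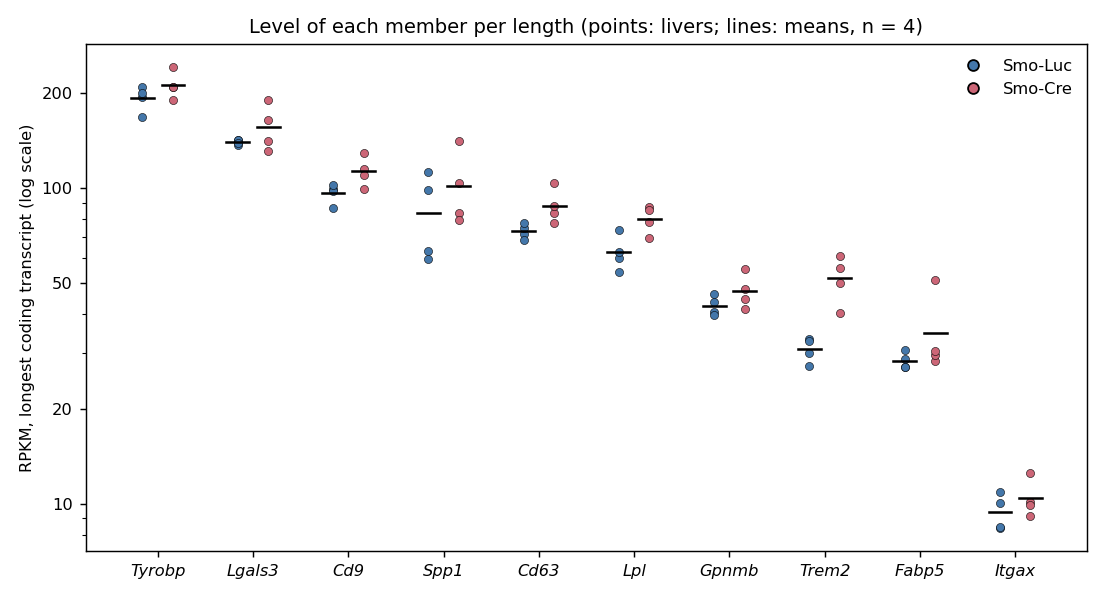
RPKM of each of the 10 genes on a log axis, computed with the longest coding transcript; points are livers, lines the means (n = 4) in Smo-Luc (blue) and Smo-Cre (red). Levels fall from Tyrobp (193 RPKM in Smo-Luc) to Itgax (9.46 RPKM), and Trem2 moves from 30.9 to 51.9 RPKM.

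Markers of macrophages as a whole moved much less than Trem2. The summed CPM of 12 pan-macrophage markers (all 12 detected, Mpeg1 the most abundant) was 2094, 2488, 2694 and 2531 in Smo-Luc and 2744, 2420, 2750 and 2426 in Smo-Cre livers. The groups overlapped, at 2452 ± 254 and 2585 ± 187 CPM, a log2 difference of 0.08. Of the 12, 9 had log2 fold changes above 0 and 3 below, with a median of 0.08. The 3 below were Mpeg1 (533 and 490 CPM, -0.12), Csf1r (218 and 198 CPM, -0.13) and Cd14 (118 and 109 CPM, -0.12), and C1qa was at 321 and 356 CPM. At an unadjusted p under 0.05, 1 of the 12 was higher, Lyz2, the lysozyme of myeloid cells (412 ± 37.9 and 512 ± 48.7 CPM, log2 fold change 0.31, SE 0.10, edgeR adjusted p = 0.219). The number higher was 2 without Smo-Luc 3, and 1 was lower without Smo-Luc 1 or Smo-Cre 1. Trem2 per 100 CPM of these markers was 1.42, 1.45, 1.22 and 1.41 in Smo-Luc and 1.60, 2.26, 2.41 and 2.51 in Smo-Cre livers. The groups did not overlap on this scale, with means of 1.38 ± 0.108 and 2.20 ± 0.412, a log2 difference of 0.68. This ratio holds the Trem2 values by which the genes were chosen, so it is a description and no separate support. Of the other 9 genes, 1 (Lpl) had ratios that did not overlap, at 10.5 ± 0.573 and 12.7 ± 1.29 per 100 CPM of markers (log2 difference 0.28). In CPM the groups of Lpl overlapped. The share of all genes with ratios that did not overlap was not computed, so nothing is read from this count. The log2 difference was 0.23 for Spp1, 0.20 for Fabp5, 0.18 for Cd63 and 0.15 for Cd9. For Tyrobp, Gpnmb, Lgals3 and Itgax it lay between 0.05 and 0.07.

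The resident macrophages of the liver, Kupffer cells, were represented by 9 markers, all of them detected and 0 of them with an unadjusted p under 0.05 in either direction (1 lower without Smo-Cre 1). Their summed CPM was 1333, 1133, 1835 and 1540 in Smo-Luc and 1838, 1130, 1246 and 1465 in Smo-Cre livers, and Cd5l was the most abundant. The log2 fold change was below 0 for 7 of the 9 (between -0.19 and -0.05) and above 0 for 2, with a median of -0.07. The 2 above 0, Vsig4 (85.9 and 96.6 CPM) and Folr2 (58.0 and 66.2 CPM), were also those with the smallest p. The means of 1460 ± 300 and 1420 ± 311 CPM differed by -0.04 on the log2 scale, less than the spread between mice. Trem2 per 100 CPM of Kupffer cell markers was 2.38 ± 0.587 in Smo-Luc and 4.18 ± 1.28 in Smo-Cre livers, with a log2 difference of 0.81 and groups that overlapped through Smo-Cre 1. Among 10 markers of monocytes and monocyte-derived macrophages, 1 (Cx3cr1, the fractalkine receptor, 14.3 ± 3.16 and 19.9 ± 4.00 CPM, log2 fold change 0.47, SE 0.17, edgeR adjusted p = 0.266) had an unadjusted p under 0.05 (0 higher and 1 lower without Smo-Luc 1 or Smo-Cre 3), and the median log2 fold change was -0.04, with 4 above 0 and 6 below. The most abundant of them, Plac8, was at 61.9 and 57.5 CPM, and Ly6c2 at 8.75 and 5.49 CPM. Their summed level was 166, 287, 299 and 250 CPM in Smo-Luc and 246, 222, 322 and 252 CPM in Smo-Cre livers.

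**Figure D4:**
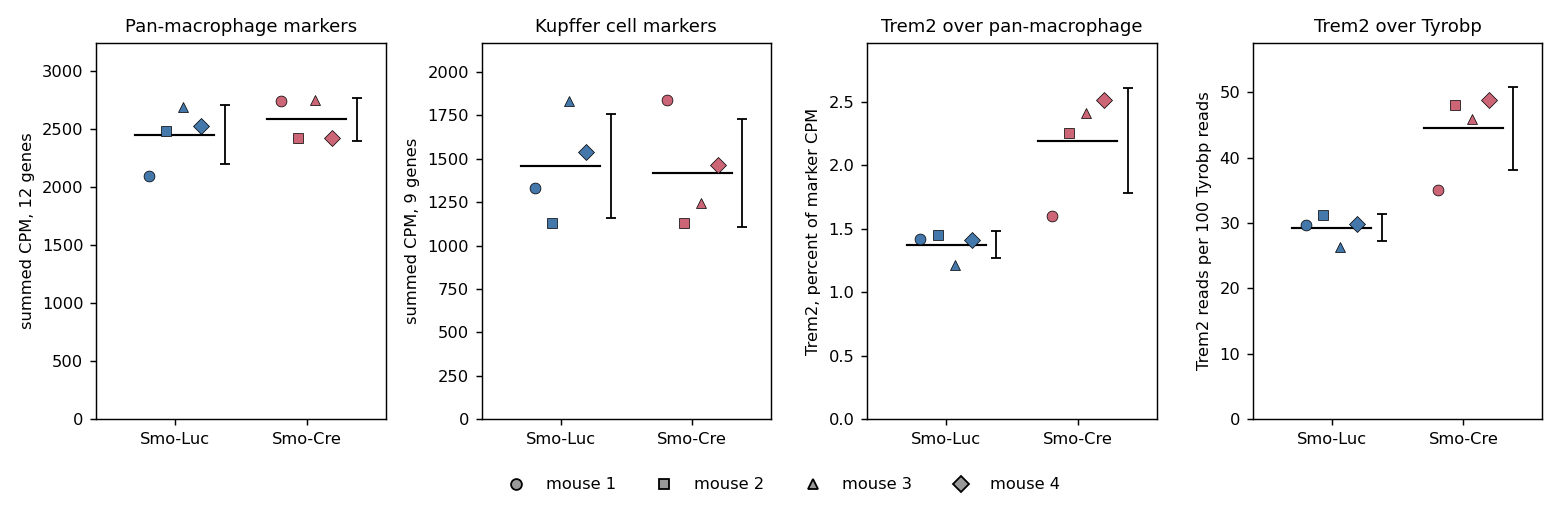
Summed CPM of the pan-macrophage and Kupffer cell markers, Trem2 as a percent of the pan-macrophage marker CPM, and Trem2 reads per 100 Tyrobp reads in each liver, on linear axes from 0; symbols mark mice 1 to 4 of each group, lines the mean and bars the SD (n = 4). The marker sums overlap between groups, whereas the Smo-Cre livers lie above the Smo-Luc livers in both ratios, with Smo-Cre 1 (1.60% and 35.1) nearest to them.

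The genes around Trem2 in its pathway were examined next, in lists written with earlier results of these data known. Of the 113 genes tested in 10 lists, 15 had an unadjusted p under 0.05 and were higher in Smo-Cre and 8 were lower, beside 6.7% and 7.15% of all genes, and 0 passed an adjusted p of 0.05 in edgeR's test, the lowest being 0.153. The 8 lower genes were 15 without Smo-Cre 1 and 3 without Smo-Luc 3. The median log2 fold change of the 113 was -0.01. Among the other Trem receptors and adaptors, 4 of 6 passed the filter on low counts. Treml1, a receptor of platelets, was at 0.757 ± 0.236 and 1.43 ± 0.207 CPM (log2 fold change 0.91, SE 0.31, adjusted p = 0.241), a level of few reads. Treml4, the most abundant of them and a receptor of splenic macrophages and dendritic cells, was at 30.3 ± 3.87 and 22.5 ± 6.19 CPM, the opposite direction from Trem2 (log2 fold change -0.43, SE 0.17, adjusted p = 0.287). Of the 4, 1 was higher (Treml1) and 1 lower (Treml4) at an unadjusted p under 0.05, and the number lower was 0 without Smo-Luc 3, Smo-Luc 4, Smo-Cre 2, Smo-Cre 3 or Smo-Cre 4. Hcst, which encodes the second adaptor DAP10, was at 3.27 and 3.10 CPM.

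Of 6 genes for ligands and sheddases, 0 were higher (2 without Smo-Luc 1) and 1 was lower (0 without Smo-Luc 2, Smo-Luc 3 or Smo-Cre 4) at an unadjusted p under 0.05, with 5 log2 fold changes above 0 and a median of 0.15. The ligand Apoe was at 10108 ± 1144 CPM in Smo-Luc and 11124 ± 583 CPM in Smo-Cre livers and Clu at 3527 and 3956 CPM, most of which hepatocytes are known to make. Adam17, a protease that sheds Trem2, was at 47.2 ± 5.87 and 38.5 ± 2.94 CPM (log2 fold change -0.29, SE 0.11, adjusted p = 0.266), and Adam10 at 80.9 and 83.8 CPM. Downstream of Tyrobp, 2 of 14 genes were higher and 0 lower at an unadjusted p under 0.05, with 5 log2 fold changes above 0, 9 below and a median of -0.02. The number higher was 1 without Smo-Luc 1, Smo-Luc 2, Smo-Luc 3, Smo-Cre 3 or Smo-Cre 4, and 1 was lower without Smo-Cre 1. Blnk, an adaptor that Syk phosphorylates, was at 23.1 ± 4.20 and 32.0 ± 3.51 CPM without overlap (log2 fold change 0.47, SE 0.14, adjusted p = 0.185), and Card9 at 5.93 and 7.62 CPM. Syk was at 45.5 and 42.3 CPM, and Lyn, the most abundant of the list, at 83.8 and 81.9 CPM.

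Of 29 further genes known from lipid-associated macrophages, 5 were higher and 1 was lower at an unadjusted p under 0.05, beside 6.7% and 7.15% of all genes. Of the 29, 16 had log2 fold changes above 0 and 13 below, with a median of 0.07. The 5 higher genes were 1 without Smo-Luc 1 and 2 without Smo-Cre 3. Atp6v0d2, a subunit of the lysosomal proton pump in macrophages and osteoclasts, was at 21.7 ± 1.56 and 28.8 ± 2.86 CPM without overlap (log2 fold change 0.41, SE 0.10, adjusted p = 0.153). The others that were higher were Lgals1, Cstb, Emp1 and Plin2, with log2 fold changes from 0.25 to 0.40. That of Lgals1 was 0.35, and 0.20 without Smo-Cre 4. The chemokine Ccl4 was lower, at 7.29 and 5.12 CPM (log2 fold change -0.51, SE 0.22), and the number lower was 0 without Smo-Luc 2, Smo-Luc 3, Smo-Cre 2 or Smo-Cre 4. Plin2 coats lipid droplets in hepatocytes as well as in macrophages, and the most abundant gene of the list, Ftl1, a ferritin chain, was at 4705 and 4722 CPM. The lysosomal proteases Ctsb and Ctsd were at 1698 and 1621 CPM and at 1187 and 1254 CPM. Of 15 transcription factors of lipid-laden macrophages, among them Rxra at 471 and 489 CPM, 0 had an unadjusted p under 0.05 in either direction, and the median log2 fold change was -0.02. With 1 mouse left out, 1 was lower without Smo-Luc 1 or Smo-Cre 1 and 1 was higher without Smo-Cre 2. The 2 with the smallest p were Tfeb (0.19, SE 0.12) and Tfec (-0.33, SE 0.19). These log2 fold changes ran from 0.12 to 0.27 for Tfeb and from -0.47 to -0.20 for Tfec with 1 mouse left out.

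Regulators and relatives of the other genes varied in direction. Of 11 regulators of lipoprotein lipase, 3 were higher (5 without Smo-Luc 1, 2 without any of 6 other mice) and 0 lower (1 without Smo-Luc 2 or Smo-Cre 1) at an unadjusted p under 0.05, with 6 log2 fold changes above 0, 5 below and a median of 0.09. They were Angptl4, an inhibitor of the lipase (201 ± 44.4 and 283 ± 43.7 CPM, log2 fold change 0.49, SE 0.16, adjusted p = 0.220), Apoc2, its cofactor (2.67 and 4.40 CPM, log2 fold change 0.73, SE 0.26), and Apoa5, an activator and the most abundant of the list (1656 and 1973 CPM, log2 fold change 0.25, SE 0.11). Of 11 tested receptors of osteopontin and related integrins, 2 were lower, Itgal (log2 fold change -0.41) and Itga5 (-0.27), and the most abundant, Itgb1, was at 256 and 245 CPM. Of the 11, 8 had log2 fold changes below 0 (median -0.10), and the number lower was 1 when any mouse other than Smo-Luc 4 or Smo-Cre 1 was left out. In the fatty acid binding protein family, Fabp7 (0.40) and Fabp1, the liver form (1054 and 1301 CPM, 0.30), were higher among 4 tested, and Fabp1 too was highest in Smo-Cre 3. This count of 2 held with 1 mouse left out only without Smo-Cre 1. It was 0 without Smo-Luc 2, Smo-Luc 4 or Smo-Cre 4, and 1 without any of the other 4 mice and with the replicate block. The log2 fold change of Fabp1 ran from 0.16 to 0.42 with 1 mouse left out. Among 15 other tetraspanins, Tspan4 was higher (0.48; 2 were higher without Smo-Luc 3 or Smo-Cre 3) and Tspan14 lower (-0.21; 4 were lower without Smo-Cre 1, and 0 without Smo-Luc 2, Smo-Luc 4, Smo-Cre 2 or Smo-Cre 3), with a median of -0.11, and Tspan31, the most abundant, was at 438 and 405 CPM. Of 6 galectins tested, Lgals4 (1.27, at 1.68 and 4.04 CPM) and Lgals1 (0.35) were higher, and Lgals9 (-0.41, 721 and 545 CPM) and Lgalsl (-0.36) were lower. The number higher was 1 without Smo-Luc 1 or Smo-Cre 4, and the number lower was 1 without Smo-Luc 3 and 3 without Smo-Cre 1. The log2 fold change of Lgals1 was 0.20 without Smo-Cre 4.

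**Figure D5:**
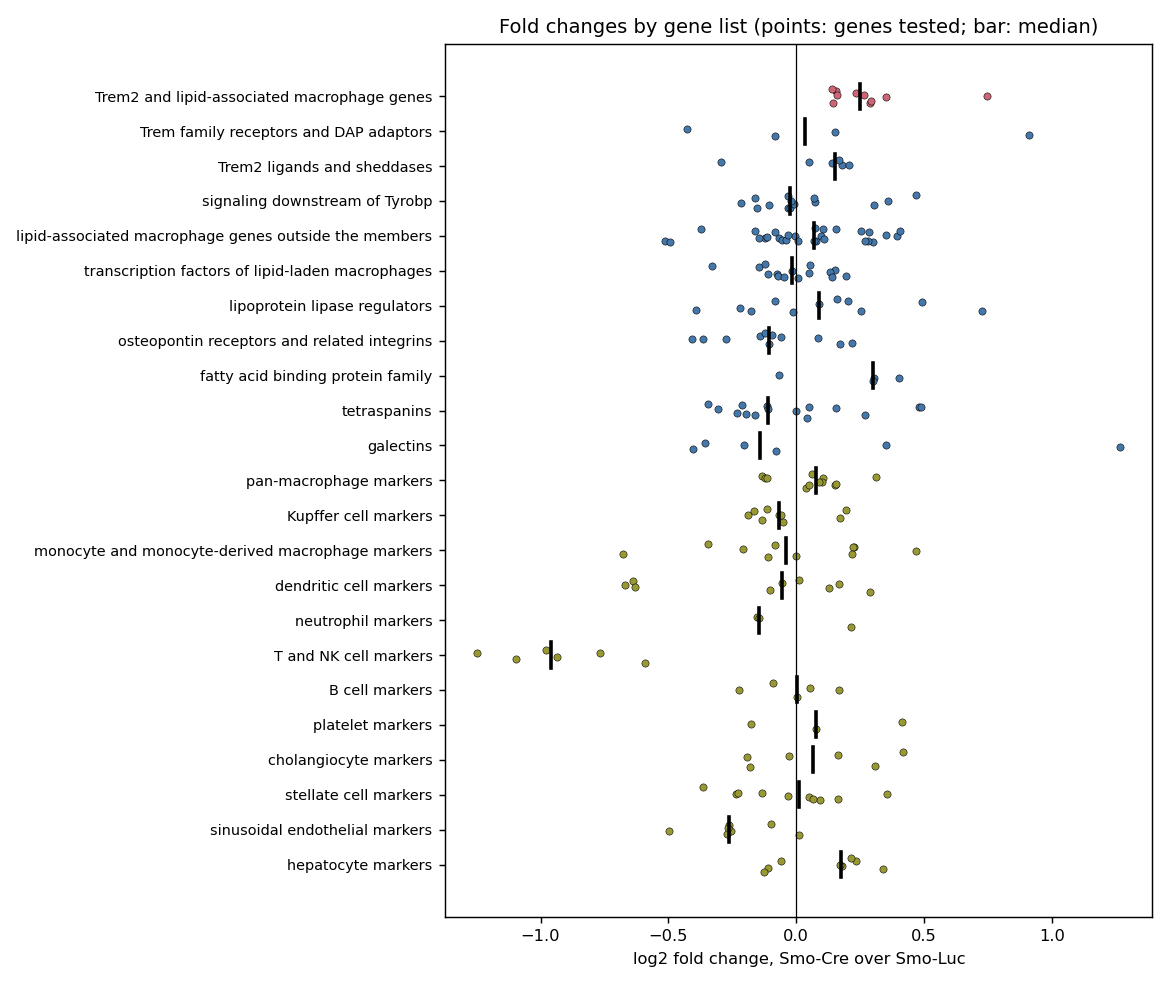
Log2 fold change of Smo-Cre over Smo-Luc (edgeR) of each gene tested in Trem2 and the other 9 genes (red), 10 pathway lists (blue) and 12 marker lists (olive), with a bar at each median. The 10 genes lie right of 0 (median 0.25), the pathway lists have medians between -0.14 and 0.30, and the T and NK cell markers lie left of 0 (median -0.96).

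Markers of other cells were compared because whole liver holds all of its cell types. The labelled tissue matched its markers, the 8 hepatocyte markers being led by Alb at 16551 and 15320 CPM, with 0 genes at an unadjusted p under 0.05. Of the 8, 5 had log2 fold changes above 0 (median 0.18), among them Cyp3a11 (1242 and 1572 CPM, 0.34, SE 0.18) and Cyp2e1 (3629 and 4272 CPM, 0.24, SE 0.13), and the number higher was 4 without Smo-Luc 1, 2 without Smo-Cre 1, and 1 without Smo-Luc 2, without Smo-Cre 4 and with the replicate block. The log2 fold change ran from 0.22 to 0.47 for Cyp3a11 and from 0.13 to 0.35 for Cyp2e1 with 1 mouse left out. Over the 88 marker genes tested in 12 lists, 2 were higher (2 to 5 with 1 mouse left out, 5 without Smo-Luc 1) and 10 lower (8 to 15 with 1 mouse left out, 15 without Smo-Cre 1) at an unadjusted p under 0.05, beside 6.7% and 7.15% of all genes. Of the lower genes 6 were the 6 tested markers of T and NK cells, led in abundance by Nkg7 (14.4 and 7.58 CPM), with a median log2 fold change of -0.96. Their summed level was 49.3, 54.1, 42.9 and 60.1 CPM in Smo-Luc and 23.5, 19.2, 33.3 and 31.9 CPM in Smo-Cre livers, and the groups did not overlap. Among the Smo-Cre livers, Smo-Cre 1 and 2 were the lower in both this sum and Trem2, and Smo-Cre 3 was the highest in both. Among the Smo-Luc livers the order was not shared, Smo-Luc 3 being the lowest in this sum and Smo-Luc 1 in Trem2. Between the groups the sum was lower and Trem2 higher in Smo-Cre livers. Il2rb, an interleukin 2 receptor chain, had the lowest adjusted p of these T and NK cell markers (log2 fold change -1.25, SE 0.23, edgeR adjusted p = 0.0957), and Cd8a was at 9.86 ± 0.755 and 5.79 ± 1.09 CPM. The part of this difference in T and NK cell markers in the level of Trem2 was not tested.

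Dendritic cells, which express Itgax, were represented by 9 markers, of which 2 were lower, H2-Ab1 (361 ± 61.0 and 227 ± 52.4 CPM, log2 fold change -0.67, SE 0.16, edgeR adjusted p = 0.140) and Ccr7 (-0.63, SE 0.23). The number lower was 1 without Smo-Luc 2 or Smo-Cre 4 and 3 without Smo-Cre 3, and the median log2 fold change was -0.06, with 4 above 0 and 5 below. Their summed level was 316, 366, 422 and 461 CPM in Smo-Luc and 244, 230, 337 and 219 CPM in Smo-Cre livers, most of it H2-Ab1, which macrophages and B cells express too. Cholangiocyte markers (6 of 8 tested) had 0 genes at an unadjusted p under 0.05, with 3 log2 fold changes above 0 (Epcam 0.42, Krt7 0.31, Krt19 0.16) and 3 below; 1 was higher without Smo-Luc 2 or Smo-Cre 3, and 1 lower without Smo-Luc 1 or Smo-Cre 1. Cdh1, the most abundant, was at 121 and 107 CPM, Sox9 at 11.8 and 10.4 CPM and Epcam at 5.03 and 6.71 CPM. There were likewise 0 such genes among neutrophil markers (3 of 8 tested, Csf3r at 12.4 and 14.4 CPM and S100a9 at 5.71 and 5.18 CPM, Ly6g at 0 in every liver), B cell markers (5 tested, Cd22 at 9.88 and 9.92, Cd79b at 3.09 and 3.50 and Ms4a1 between 0.566 and 1.89 CPM over all livers) and platelet markers (3 of 5 tested, Itga2b at 5.66 and 5.97, Pf4 at 4.51 and 6.00 and Gp1ba at 1.32 and 1.15 CPM, with 1 higher without Smo-Cre 2 or Smo-Cre 3). Stellate cell markers (10 tested, led by Col3a1 at 385 and 329 CPM) had 1 lower gene, Col1a1 (-0.36; 3 were lower without Smo-Cre 4 and 2 without Smo-Luc 1), and Col1a2 was at 141 and 120 CPM. Of the 10, 5 had log2 fold changes above 0 (Acta2 the highest at 0.36) and 5 below, with a median of 0.01, and 1 was higher without Smo-Cre 2. The sinusoidal endothelial markers (7 tested, led by Clec4g at 59.7 and 49.7 CPM, with Kdr at 26.3 and 21.7 CPM) had 1, Pecam1 (-0.50; 4 were lower without Smo-Cre 1, and 0 without Smo-Luc 3, Smo-Cre 2 or Smo-Cre 3), with a median log2 fold change of -0.26 and a summed level of 191, 187, 226 and 228 CPM in Smo-Luc and 246, 119, 158 and 200 CPM in Smo-Cre livers. The parts of these cells in the levels of the 10 genes were not tested.

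Across the 8 livers, the other 9 genes were not those whose log2 CPM was most like that of Trem2. They were left out of the ranking, and their r is given below for comparison. Among 12929 other genes ranked by Pearson's r, the leading ones were Acaa1b (0.99), a peroxisomal thiolase of fatty acid oxidation in hepatocytes, Gm14325 (0.98), Cmc4 (0.98), Veph1 (0.98) and Plxna4os1 (0.97). Acaa1b was at 767, 823, 744 and 779 CPM in Smo-Luc and at 909, 1102, 1309 and 1237 CPM in Smo-Cre livers, so Smo-Cre 1 was the lowest and Smo-Cre 3 the highest of the group, as for Trem2. With the mean of each group removed, the leading genes were Ppid (0.98), Sf3b1 (0.98), Gm10030 (0.97), Vps50 (0.97) and Dimt1 (0.97). For the other 9 genes, r with Trem2 over the 8 livers was 0.86 for Cd63, 0.81 for Lpl, 0.74 for Cd9, 0.70 for Gpnmb, 0.66 for Tyrobp, 0.65 for Fabp5, 0.64 for Lgals3, 0.56 for Itgax and 0.36 for Spp1. With group means removed, r was 0.66 for Cd63, 0.64 for Fabp5, 0.63 for Gpnmb and Lgals3, 0.54 for Tyrobp, 0.52 for Itgax, 0.40 for Lpl, 0.34 for Cd9 and 0.03 for Spp1. These are descriptions over 8 points that share libraries, depth and the group difference by which Trem2 was chosen, and the highest r among 12929 genes is high by selection.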

How the data were processed

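RNA of 8 whole livers was sequenced, 4 of Smo-Luc and 4 of Smo-Cre mice, grouped by the labels. The authors deposited whole-number counts per gene symbol, 1 list per liver. The submitters' processing notes name fastp, STAR 2.7.5, featureCounts 2.0.1 and GRCm38, whereas the deposited lists end with the 5 special entries of htseq-count, so the counter is uncertain, and annotation and strand are not given in the sources used here. Reads on no feature (7.56% to 9.68% of counted reads) and reads on more than 1 gene (2.45% to 2.61%) stayed out of library sizes and tests. Genes that passed filterByExpr (12977) were fitted by edgeR 4.0.16 under R 4.3.3, with TMM factors and a single group term (glmQLFit, glmQLFTest), and p-values were adjusted by Benjamini and Hochberg's method. Standard errors are those of the fitted log2 fold changes, log2 CPM used a prior count of 2, and DESeq2 1.42.0 served as an alternative. Reads on genes, 8203299 to 9999732 per liver, put the CPM of 3 reads at 0.296 to 0.365. Molecular identifiers are not given, so reads could not be reduced to separate molecules. SDs and standard errors include the spread between mice. Nothing states that mice came from separate litters or batches, so p-values set the group difference against the spread between these livers only. No library was a copy of another of its group (chi-square of 7.76 to 17.5 per degree of freedom). Pairs across groups were not compared in this way. Gene models were those of GENCODE M21, promoters those of RefSeq (GRCm38.p6). The 10 genes and the lists were chosen with earlier results of these data known. Besides the 10 genes and Smo, the genes named were the most abundant of each list, the 2 with the smallest p in it, and the 5 most like Trem2 over the livers, with and without group means. Other genes at an unadjusted p under 0.05 and Hcst, Adam10, Syk, Ctsb, Ctsd, Krt7, Krt19 and Acta2 were named after values were seen. Alternatives were other size factors, DESeq2, 2 filters, a replicate block, each mouse left out, other transcript lengths and other macrophage scales. Figures were drawn with matplotlib 3.10.9. Igkc and Trac, 2 planned markers, were not among the symbols.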

Additional observations from a re-analysis of the deposited data

Results flagged for a closer look

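In 190 groups of 4 livers examined, each for 1 named gene, summed list or library measure, 6 held a liver far from the other 3 (gap to the nearest over the whole range above Dixon's 95% value), where chance alone gives about 9.50. Among the 10 genes this was Fabp5 in Smo-Cre 3, at 50.4 CPM against 27.9 to 30.0 CPM in the other Smo-Cre livers. Reads on genes in the same liver, 8203299, were the lowest of the group against 9367795 to 9543675. Smo-Cre 3 was also the highest of its group in 9 of the 10 genes, and the part of its depth in this was not tested.

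The other 4 were Cd8a in Smo-Luc 1 (11.0 CPM against 9.43 to 9.53), the summed platelet markers in Smo-Luc 1 (14.5 CPM against 11.2 to 11.3), Cdh1 in Smo-Cre 2 (130 CPM against 97.0 to 103) and Sox9 in Smo-Cre 1 (13.7 CPM against 8.93 to 9.74). Over all 8 livers, Cdh1 was highest in Smo-Luc 3 (148 CPM).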

How the results depend on the processing

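The log2 fold change of Trem2 ran from 0.66 to 0.86 over its 13 alternatives, and none of the 130 alternative values of the 10 genes was below 0. These alternatives reuse the livers and the contrast by which the 10 genes were chosen, so the ranges are a description and no separate support. The count of genes at an adjusted p under 0.05, 0 in edgeR, was 61 with no filter on low counts, 8 with the replicate block and 167 with DESeq2, and 0 to 78 with 1 mouse left out (78 without Smo-Cre 1, 5 without Smo-Luc 1, 4 without Smo-Cre 3). The log2 fold change of Smo had an adjusted p under 0.05 with no filter (-0.88, adjusted p = 0.0385), without Smo-Cre 1 (-0.997, adjusted p = 0.0265) and in DESeq2 (-0.87, adjusted p = 0.00646), and ranged from -0.997 to -0.81 with 1 mouse left out. The log2 difference of Trem2 over macrophage markers, which also holds the values by which Trem2 was chosen, ranged from 0.60 to 0.81. At an unadjusted p under 0.05, with 1 mouse left out, pathway genes that were lower numbered 3 (without Smo-Luc 3) to 15 (without Smo-Cre 1), against 8 with all mice, and marker genes that were higher 2 to 5 (5 without Smo-Luc 1), against 2 with all mice and 4 with the replicate block. DESeq2 also gave adjusted p-values under 0.05 for Lgals4, H2-Ab1, Nkg7, Il2rb, Cd8a and Acaa1b, edgeR with no filter for H2-Ab1, Il2rb and Acaa1b, and edgeR without Smo-Cre 1 for Itgal and Acaa1b. The replicate numbers were not shown to pair the mice (correlation of deviations 0.104, 0.187, 0.0611 and 0.113 for numbers 1 to 4; Smo-Luc 1 was most like Smo-Cre 4). The block moved the counts of 6 single lists by over 1.5 times, each by 1 gene. The causes of these differences were not tested.

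Signs turned only with 1 mouse left out, among 72 other named genes with 932 values, 22 times in genes with small differences. Across such fits the log2 fold change ran from -0.097 to 0.043 for Lyn, -0.035 to 0.072 for Ftl1, -0.022 to 0.12 for Rxra, -0.22 to 0.087 for Cd5l, -0.027 to 0.30 for Folr2, -0.28 to 0.0399 for Plac8, -0.26 to 0.12 for S100a9, -0.047 to 0.055 for Cd22, -0.43 to 0.11 for Ms4a1, -0.017 to 0.21 for Itga2b, -0.38 to 0.0061 for Gp1ba and -0.16 to 0.18 for Gm10030. On the median transcript length, Trem2 was at 31.3 RPKM in Smo-Luc and 52.7 RPKM in Smo-Cre livers, against 7.02 and 11.8 on the longest transcript. Depth limits genes of few reads, such as Smo, Treml1 and Lgals4.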
